A study of Zea mays with 2 samples.

Results

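The genes described here are 39 maize genes whose deposited description names a peroxidase, a catalase, a superoxide dismutase, a respiratory burst or NADPH oxidase, or ascorbate. Glutathione peroxidases and thioredoxins were left out, and a gene had to reach a value of 1 in at least 1 of the 2 libraries. Of the 41406 genes in the files, 51 carried such a description and 12 of these stayed under the minimum. By name, 26 of the 39 are peroxidases, catalases or superoxide dismutases. The other 13 are 3 NADPH oxidases, 4 other genes named for ascorbate, 5 genes described as related to acid phosphatase and haloperoxidase, and a copper chaperone for superoxide dismutase. The words of the rule took those last 6 genes although they are not known as enzymes of the antioxidant system.

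The RNA came from endosperm, the starch- and protein-storing tissue of the kernel, of maize (Zea mays) at 12 days after pollination. There was 1 library with the genotype dek40, a defective kernel mutant, and 1 wild-type library. The series title and design text name dek41, so the mutant is called here the library labelled dek40. The inbred background, the allele and the number of kernels pooled are not stated in the labels. Because each genotype has a single library, no spread between replicates, test or p-value can be given, and every difference is one between these libraries only.

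Superoxide dismutases turn superoxide into hydrogen peroxide. Catalases break hydrogen peroxide down in peroxisomes, and ascorbate peroxidases reduce it with ascorbate in the cytosol and in organelles. NADPH oxidases of the respiratory burst type make superoxide at the plasma membrane. The secreted class III peroxidases of plants use hydrogen peroxide in the cell wall and vacuole, where they couple phenolic compounds such as lignin precursors. In maize the catalase isozymes come from separate genes that differ in the tissue and stage of their expression.

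Levels are given as deposited, headed FPKM (fragments per kilobase of gene, normalised to library size) for the wild type and RPKM (the same for reads) for the library labelled dek40. Across genes that reached 1 in both files, deposited dek40 values were 1.34-fold higher at the median. All ratios use dek40 values multiplied by 0.747 to remove that shift. The log2 ratio of a gene is dek40 over wild type on the log2(value + 1) scale, which understates the difference of low genes. Higher and lower mean a ratio of at least 2-fold on that scale. The library totals implied by the values, up to a common factor, were 15669149 (wild type) against 14218436 (dek40), and whether they count reads or pairs was not determined. Intervals are 95% Clopper-Pearson intervals of the ratio without a pseudocount, which cover counting error only, and reads behind a gene are given as lower bounds. The 22 genes described as zeins, the endosperm storage proteins, made up 16.1% of the summed wild-type values and 2.49% of those of the library labelled dek40. Markers of other kernel cell types differed too: all 4 basal transfer layer markers were lower, with log2 ratios from -3.22 to -2.49, while of the 2 aleurone markers AL-9 (GRMZM2G091054) was higher at 1.16 and Nkd1 (GRMZM2G129261) was lower at -1.04. The part of these markers in the results was not tested, and in such bulk RNA fewer cells of a type and less RNA per cell cannot be told apart.

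Between the endosperm libraries 82.1% of these genes stayed within 2-fold, beside 89.1% of all genes at 1 or more in either library. Under 10 in at least 1 library were 6 of the 7 members past 2-fold. So were 1451 of the 1784 higher and 901 of the 1406 lower genes among all those tested, so this is not particular to the members. Of the 39 genes, 5 were higher in the library labelled dek40 (12.8%), beside 6.12% of all 29142 genes at 1 or more in either library. A further 2 were lower (5.13%), beside 4.82% of all those genes. The higher genes were an ascorbate oxidase, a haloperoxidase-related gene, the NADPH oxidase gene rbohD, Peroxidase 56 and the cytochrome b561 gene Zmb561. The lower genes were the catalase gene cat2 and another haloperoxidase-related gene. Of these called genes, rbohD, Peroxidase 56 and the higher haloperoxidase-related gene met the minimum only through dek40, and cat2 only through the wild type. The same minimum was applied to all genes, and the shares are descriptions, not tests. The median log2 ratio over the 39 genes was 0.06, beside 0.04 over all genes tested. With the values as deposited 10 were higher, 1 was lower and the median was 0.45, beside 14.7% and 2.65% of all genes. The 5 added were the abundant GRMZM2G054300 (cytosolic ascorbate peroxidase) and GRMZM2G058522 (superoxide dismutase), and 3 other peroxidases.

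**Figure D1:**
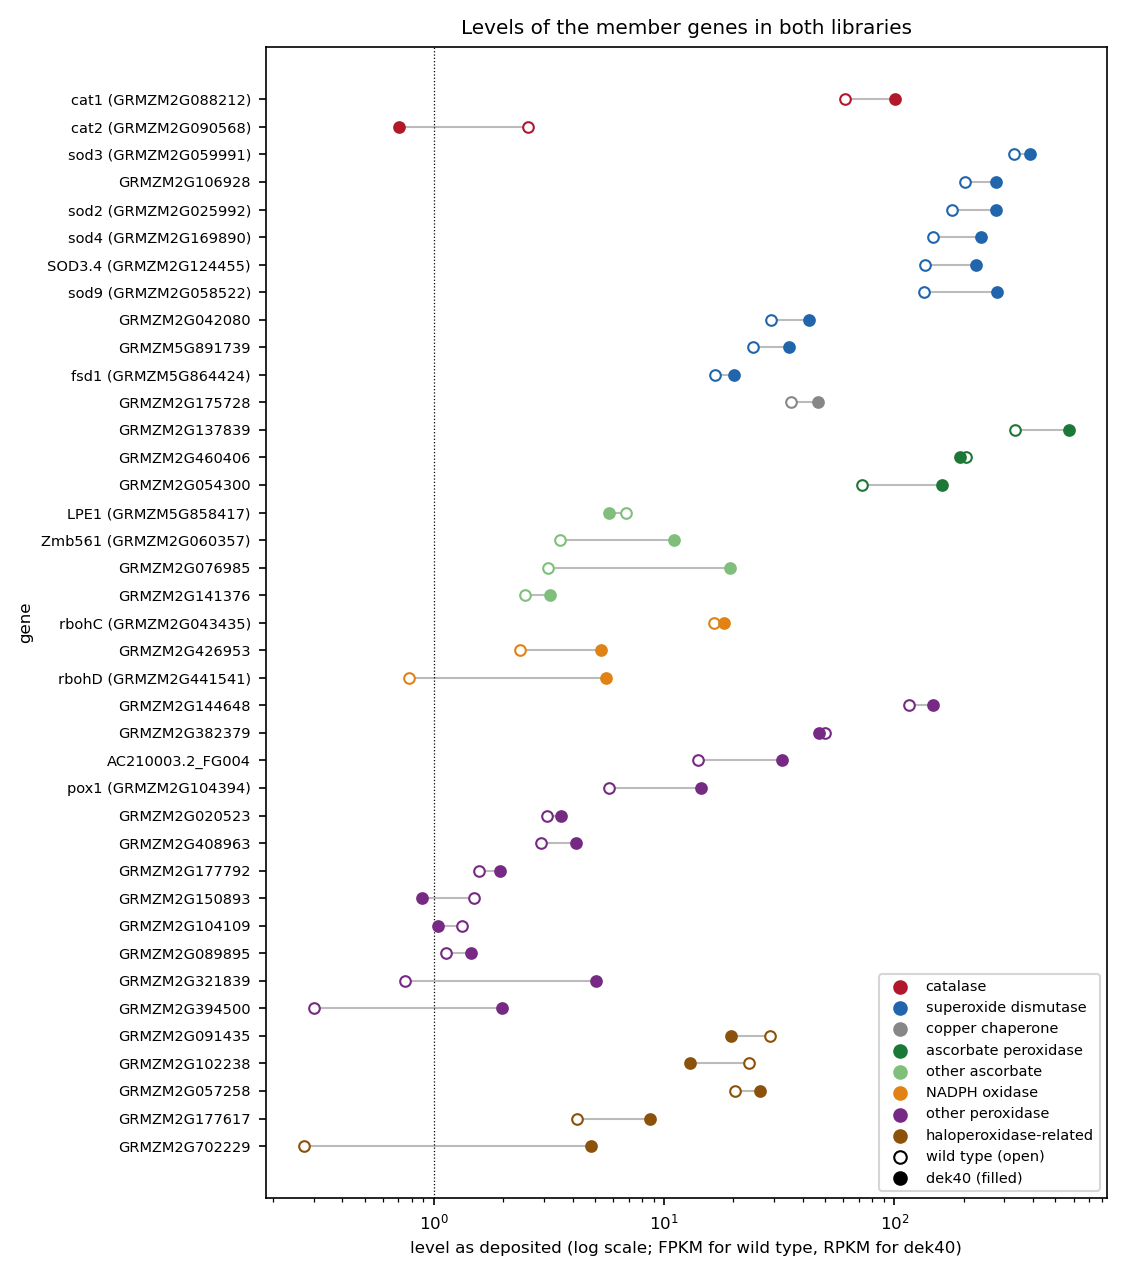
Level of each of the 39 genes (horizontal log axis, FPKM for the wild type as open points and RPKM for the library labelled dek40 as filled points, both as deposited), with genes grouped and coloured by family. The dotted line marks the minimum of 1. The most abundant gene in both libraries was the cytosolic ascorbate peroxidase GRMZM2G137839, at 335 FPKM against 572 RPKM, while cat2 lies under the line in dek40 at 0.706 RPKM.

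Calls fell unevenly over levels. Of the 21 members at 10 or more in both libraries, 20 stayed within 2-fold (95.2%), as did 92.0% of all genes at such levels, so this is not particular to the members. Among the 21, 0 were higher and 1 was lower, beside 3.19% higher and 4.84% lower among all 10435 genes at such levels. Of the 18 members under 10 in 1 or both libraries, 5 were higher and 1 was lower, beside 7.76% and 4.82% of the 18707 tested genes of that class. The order of the 39 levels was much alike in the libraries, with a Spearman correlation of 0.94 across genes, which share both libraries and are not replicates. The counting interval lay wholly above 2-fold for 4 members (10.3%, beside 3.62% of all tested genes) and wholly below it for 1 (2.56%, beside 2.57%). Of the 4, rbohD, Peroxidase 56 and GRMZM2G702229 were under 1 in the wild type, at 0.776, 0.746 and 0.272 FPKM. They met the minimum only through dek40, and cat2, the 1 below, only through the wild type.

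**Figure D2:**
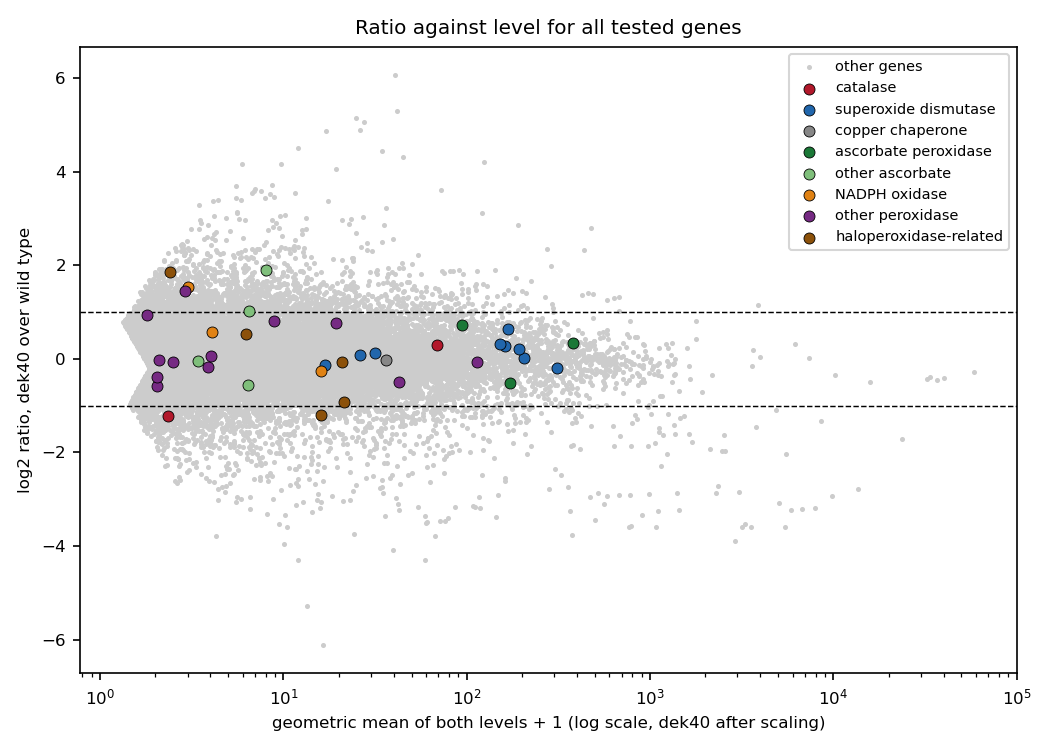
Log2 ratio of dek40 over wild type (vertical axis) against the geometric mean of both levels plus 1 (horizontal log axis, dek40 after scaling) for the 29142 tested genes in grey and the 39 members in colour by family. Dashed lines mark 2-fold. The superoxide dismutases lie at the right near 0, from -0.20 to 0.63, and the members above the upper line lie at the left.

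Superoxide dismutases were the most abundant family. The 9 genes summed to 1198 FPKM (wild type) against 1778 RPKM (dek40), a 1.11-fold ratio after scaling. All 9 stayed within 2-fold, with log2 ratios from -0.20 to 0.63 and a median of 0.12, against 0.53 as deposited. All were at 10 or more in both libraries, a level at which 92.0% of all genes stayed within 2-fold. In each library 6 of the 9 stood above 100. The mitochondrial manganese enzyme sod3 (GRMZM2G059991), described as Mn 3.1, led the family with 331 FPKM (wild type) against 387 RPKM (dek40). Its log2 ratio was -0.20, with an interval of -0.26 to -0.13, and 0.22 as deposited, so its direction depends on the scaling. The other manganese gene, SOD3.4 (GRMZM2G124455), was at 136 FPKM against 226 RPKM, giving a log2 ratio of 0.31 (interval 0.22 to 0.41). The counting intervals of the manganese genes, whose products act in the mitochondrial matrix, did not overlap each other. They leave out any spread between replicates.

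The 5 copper-zinc genes, whose products act in the cytosol and in plastids, had log2 ratios from 0.03 to 0.63. GRMZM2G058522, described as Cu-Zn 4AP, had the highest ratio of the family, at 134 FPKM (wild type) against 278 RPKM (dek40). The log2 ratio was 0.63 (interval 0.52 to 0.75), and 1.05 as deposited. It ranked in place 8 among the 39 genes in the wild type and in place 3 in dek40. GRMZM2G169890, described as Cu-Zn 4A, was at 146 FPKM against 237 RPKM, giving a log2 ratio of 0.27 (0.16 to 0.39). The names of these genes mark them as closely related copies that can share reads, so the split between them is uncertain. Their RefSeq synonyms are crossed against the descriptions, with sod4ap given to GRMZM2G169890 and Sod4A to GRMZM2G058522. Which copy each name belongs to was not settled. The sod2 gene (GRMZM2G025992) was at 178 FPKM against 276 RPKM, giving a log2 ratio of 0.21, while GRMZM2G106928 was at 202 FPKM against 276 RPKM, giving a log2 ratio of 0.03. The interval of GRMZM2G106928, from -0.06 to 0.12, includes 0, and that of sod2, from 0.12 to 0.30, does not. The least abundant copper-zinc gene, GRMZM5G891739, was at 24.4 FPKM against 34.9 RPKM with a log2 ratio of 0.09.

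The copper-zinc genes made up 57.2% of the summed superoxide dismutase level in the wild type and 62.0% in dek40. The manganese genes made up 39.0% and 34.5%. These shares do not depend on the scaling. The remaining genes, described without a metal, were fsd1 (GRMZM5G864424), whose symbol marks an iron enzyme, and GRMZM2G042080. They were at 16.6 FPKM against 20.1 RPKM (log2 ratio -0.14) and at 29.2 FPKM against 42.7 RPKM (0.12). The copper chaperone GRMZM2G175728, which loads copper into the copper-zinc enzymes, was at 35.5 FPKM against 46.7 RPKM, giving a log2 ratio of -0.02 with an interval of -0.27 to 0.22.

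**Figure D3:**
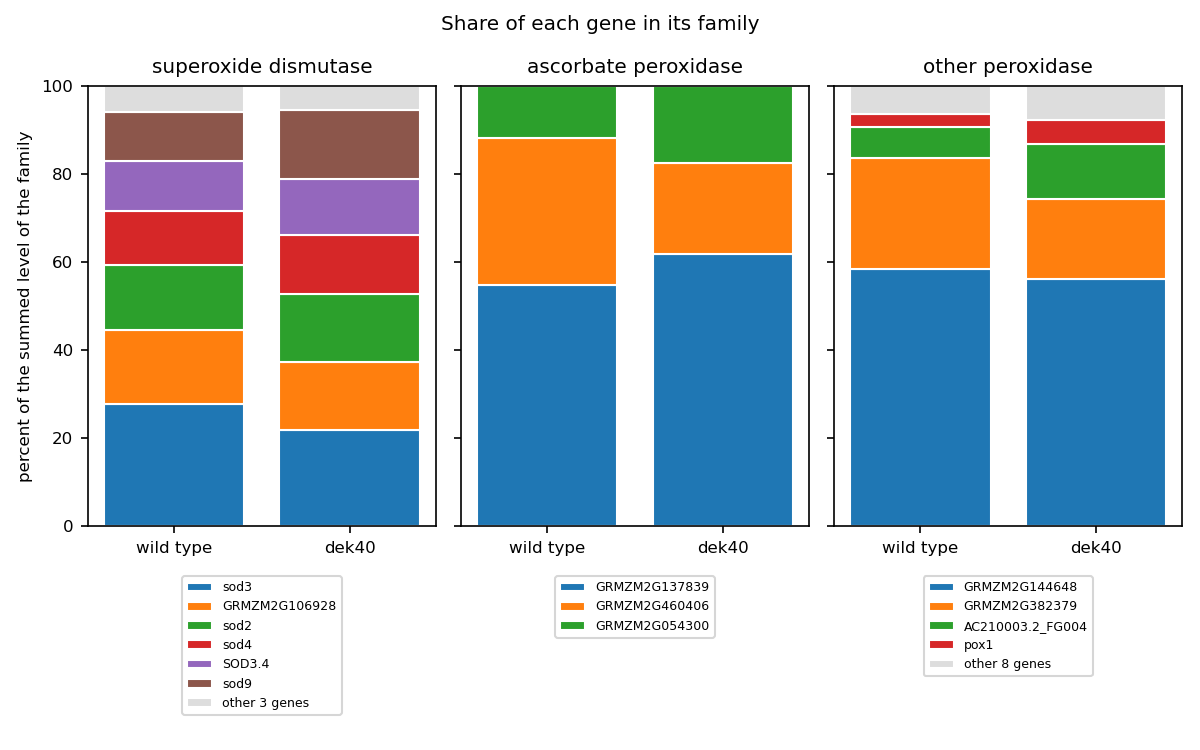
Percent of the summed level of a family (vertical axis, from 0 to 100) held by each gene in the wild-type and dek40 libraries, for superoxide dismutases, ascorbate peroxidases and other peroxidases. Genes under 5% in both libraries are joined. The share of sod3 was 27.7% in the wild type and 21.8% in dek40, and that of the peroxisomal ascorbate peroxidase GRMZM2G460406 was 33.4% and 20.7%.

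Catalase transcripts were almost all from cat1, and the low cat2 transcript was lower in dek40. The cat1 gene (GRMZM2G088212) was at 61.0 FPKM (wild type) against 101 RPKM (dek40), from at least 1412 and 2122 reads. This gave a log2 ratio of 0.30, with an interval of 0.21 to 0.41. The cat2 gene (GRMZM2G090568) was at 2.56 FPKM against 0.706 RPKM, from at least 64 and 16 reads. Its log2 ratio was -1.22, which is 4.86-fold lower by the scaled levels without a pseudocount, with an interval of -3.17 to -1.47. As deposited it was -1.06, still past 2-fold, and with a pseudocount of 5 it was -0.45. Of the summed catalase level, cat1 held 96.0% in the wild type and 99.3% in dek40. The third isozyme gene, GRMZM2G079348, was under the minimum at 0.604 FPKM against 0.266 RPKM. Maize cat2 is known from the scutellum, a tissue of the embryo, as well as from leaves. The embryo markers did not move together: the oleosin gene GRMZM2G480954 had a log2 ratio of -1.30 and Globulin-1 (GRMZM2G067919) one of 0.31, and their part in the cat2 value was not tested.

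The 3 ascorbate peroxidases stayed within 2-fold, as did 92.0% of all genes at 10 or more in both libraries, and did not share a direction. Both cytosolic genes, described as APx1, had ratios above 0. GRMZM2G137839 was at 335 FPKM (wild type) against 572 RPKM (dek40), the highest level of the 39 genes in each library, with a log2 ratio of 0.35 (interval 0.29 to 0.41). GRMZM2G054300 was at 72.6 FPKM against 162 RPKM, giving a log2 ratio of 0.73 (0.63 to 0.84), and 1.14 as deposited. They share a description, so reads may have been split between them, and the ratio of their summed levels was 1.35 after scaling. The peroxisomal gene GRMZM2G460406, described as APx4, was at 204 FPKM against 192 RPKM, giving a log2 ratio of -0.51 (-0.59 to -0.43) and -0.09 as deposited. Its counting interval did not overlap those of the cytosolic genes, and such intervals leave out any spread between replicates. Another peroxisomal gene, GRMZM2G004211, was under the minimum at 0.0367 FPKM against 0.323 RPKM.

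Among other genes named for ascorbate, 2 of 4 were higher and 0 were lower, beside 6.12% higher and 4.82% lower over all tested genes. Ascorbate oxidases are secreted copper enzymes that oxidise ascorbate in the cell wall space. The ascorbate oxidase gene GRMZM2G076985 was at 3.14 FPKM (wild type) against 19.3 RPKM (dek40), from at least 81 and 452 reads. Its log2 ratio of 1.90 was the highest of the 39 genes with a pseudocount of 1. By scaled levels without a pseudocount it was 4.60-fold higher (interval 1.86 to 2.56 on the log2 scale), below the haloperoxidase-related GRMZM2G702229 (13.2-fold), rbohD, Peroxidase 56 and GRMZM2G394500 (4.94-fold). It was also the only member still past 2-fold with a pseudocount of 5. The other ascorbate oxidase gene, GRMZM2G141376, was at 2.49 FPKM against 3.19 RPKM, giving a log2 ratio of -0.05 with an interval of -0.55 to 0.43. These copies stood close in the wild type and apart in dek40.

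Zmb561 (GRMZM2G060357), a cytochrome b561 that passes electrons from ascorbate across a membrane, was at 3.52 FPKM against 11.0 RPKM. The log2 ratio was 1.03, just past 2-fold, from at least 13 and 37 reads, and the interval of 0.28 to 2.26 reaches well inside 2-fold. A further gene described as a transporter of this kind, GRMZM2G066885, was the gene nearest below the minimum, at 0.0451 FPKM against 0.993 RPKM. The next below was a Peroxidase 2 gene (GRMZM2G061088), at 0.359 FPKM against 0.988 RPKM. The members nearest above it were a pair of Peroxidase 1 genes, GRMZM2G104109 at 1.32 FPKM against 1.04 RPKM and GRMZM2G089895 at 1.13 FPKM against 1.45 RPKM. The gene LPE1 (GRMZM5G858417), described as a nucleobase-ascorbate transporter, was at 6.82 FPKM against 5.74 RPKM, giving a log2 ratio of -0.56 and -0.21 as deposited.

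The levels of the NADPH oxidases lay closer together in dek40 than in the wild type. One of them, rbohD, met the minimum only through dek40, and such a choice of genes widens the wild-type spread. The rbohC gene (GRMZM2G043435) was the most abundant in each library, at 16.5 FPKM (wild type) against 18.1 RPKM (dek40). This gave a log2 ratio of -0.27 (interval -0.44 to -0.14) and 0.13 as deposited. The rbohD gene (GRMZM2G441541) was the lowest in the wild type at 0.776 FPKM and reached 5.58 RPKM in dek40, from at least 34 and 222 reads. Its log2 ratio was 1.54, or 5.38-fold by scaled levels, with an interval of 1.90 to 2.99. The gene described as respiratory burst oxidase protein A (GRMZM2G426953) was at 2.37 FPKM against 5.34 RPKM, giving a log2 ratio of 0.57 with an interval of 0.39 to 1.12. The ratio of the summed levels of the 3 genes was 1.10 after scaling.

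The remaining 12 peroxidases, which carry class III names or the plain name of a peroxidase, held 1 higher gene (8.33%) and 0 lower genes. Over all tested genes 6.12% were higher and 4.82% lower. The median log2 ratio of the 12 genes was -0.05, against 0.27 as deposited. Their summed level was 197 FPKM against 260 RPKM, a ratio of 0.99 after scaling. Peroxidase 24 (GRMZM2G144648) alone held 58.3% of the summed level in the wild type and 56.2% in dek40. It was at 115 FPKM against 146 RPKM, giving a log2 ratio of -0.07 with an interval of -0.16 to 0.02. Peroxidase 68 (GRMZM2G382379) followed, at 49.9 FPKM against 46.9 RPKM, giving a log2 ratio of -0.50 (-0.73 to -0.30). Peroxidase 56 (GRMZM2G321839) was the higher gene, at 0.746 FPKM against 5.07 RPKM from at least 12 and 74 reads. The log2 ratio was 1.46, or 5.08-fold by scaled levels, with an interval of 1.45 to 3.36.

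Ratios between 1.5-fold and 2-fold were found in 3 more peroxidase genes, all above 0, of which GRMZM2G394500 met the minimum only through dek40. A Peroxidase 54 gene, which met the minimum only through the wild type, fell just short of that limit in the other direction, at 1.496-fold lower. Of all tested genes, 17.3% were at least 1.5-fold higher and 13.1% at least 1.5-fold lower. These shares include the 6.12% higher and 4.82% lower past 2-fold, which the count of 3 genes leaves out. A gene described as a putative class III secretory peroxidase (GRMZM2G394500) was at 0.300 FPKM against 1.98 RPKM, giving a log2 ratio of 0.93 from at least 5 and 30 reads. With a pseudocount of 0.1 its ratio was 1.98. The pox1 gene (GRMZM2G104394), described as Peroxidase 1, was at 5.73 FPKM against 14.4 RPKM, giving a log2 ratio of 0.81 (interval 0.56 to 1.27). Peroxidase 16 (AC210003.2_FG004) was at 14.0 FPKM against 32.5 RPKM, giving a log2 ratio of 0.76 (0.56 to 1.04). As deposited, both were past 2-fold. The lowest ratio was that of a Peroxidase 54 gene (GRMZM2G150893), at 1.49 FPKM against 0.891 RPKM, with a log2 ratio of -0.58 that became -1.06 with a pseudocount of 0.1. The Peroxidase 1 gene GRMZM2G104109 had a log2 ratio of -0.39 with an interval from -1.83 to 0.26. The remaining 4 genes of the family were at 1.13 to 3.11 FPKM and 1.45 to 4.14 RPKM, with log2 ratios from -0.17 to 0.06.

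**Figure D4:**
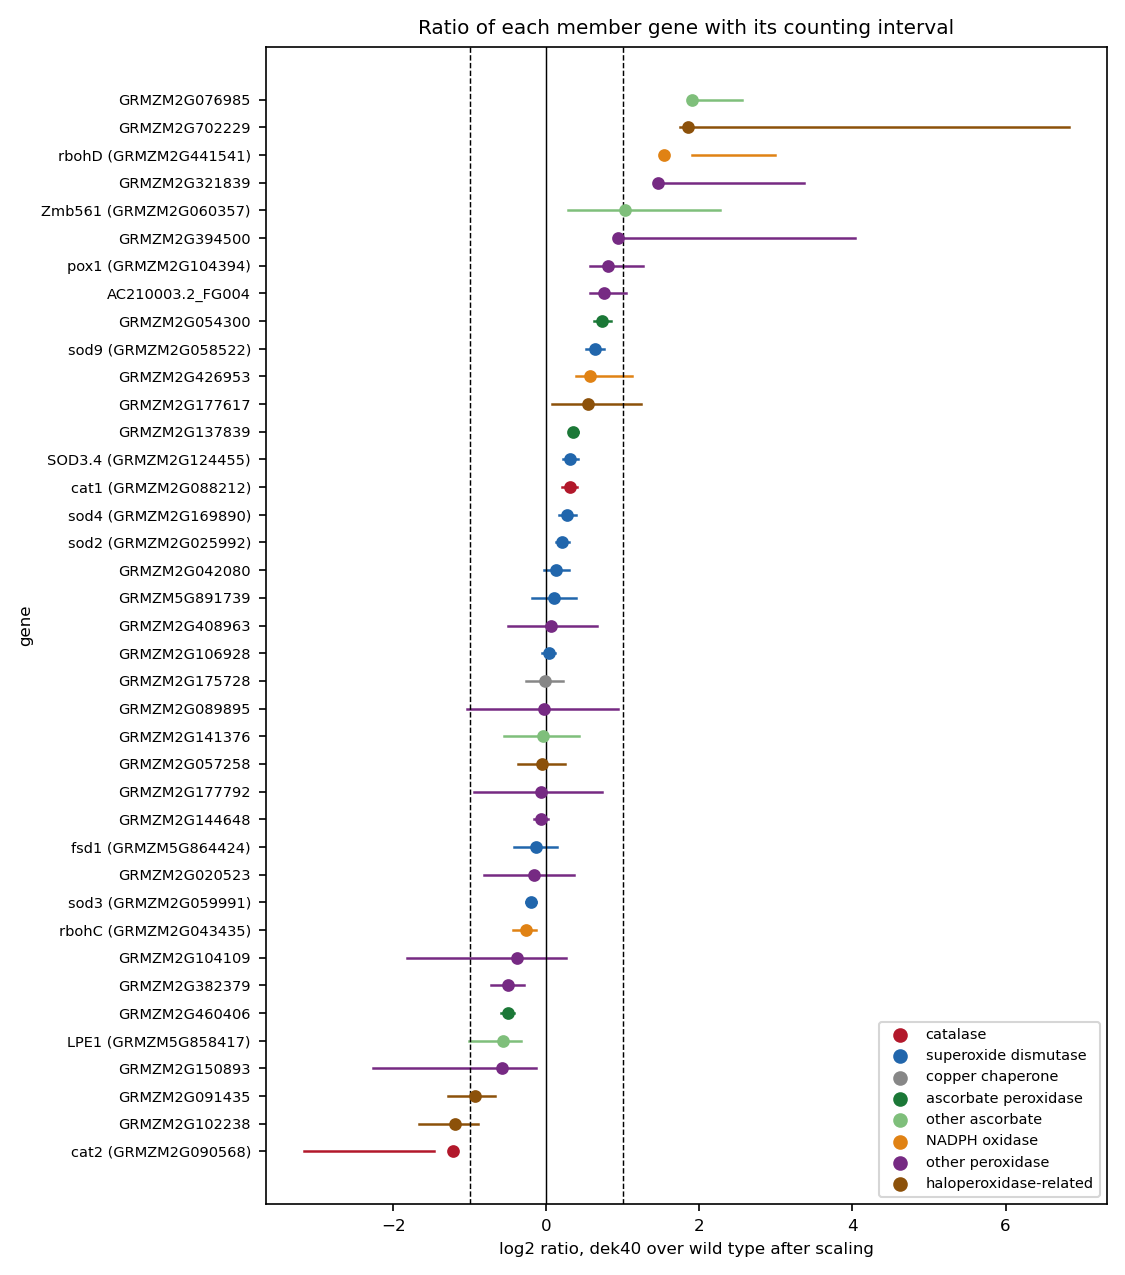
Log2 ratio of dek40 over wild type after scaling for each of the 39 genes, sorted and coloured by family. Points are ratios with a pseudocount of 1 and lines are 95% counting intervals of the ratio without a pseudocount, so a low gene's point can lie outside its line. Dashed lines mark 2-fold. The ascorbate oxidase GRMZM2G076985 stands at the top at 1.90 and cat2 at the bottom at -1.22.

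The 5 haloperoxidase-related genes went in both directions, with log2 ratios from -1.19 to 1.85 and a median of -0.06 (0.34 as deposited). GRMZM2G702229 was at 0.272 FPKM (wild type) against 4.80 RPKM (dek40), giving a log2 ratio of 1.85 that rests from at least 2 and 32 reads. By scaled levels it was 13.2-fold higher, and its interval of 1.75 to 6.83 was the widest of the called genes. GRMZM2G102238 was at 23.3 FPKM against 12.9 RPKM, giving a log2 ratio of -1.19 (interval -1.66 to -0.89), and at -0.80 as deposited it was within 2-fold. It was the only called member at 10 or more in both libraries. GRMZM2G091435 was at 28.7 FPKM against 19.5 RPKM, giving a log2 ratio of -0.93. The others, GRMZM2G177617 and GRMZM2G057258, had log2 ratios of 0.54 and -0.06.

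The 12 described genes under the minimum were peroxidases, catalase 3, a peroxisomal ascorbate peroxidase and an electron transporter, and a gene under 1 in both files cannot reach 2-fold on the log2(value + 1) scale. Related genes outside the list were described by the same limits, to be read beside the 6.12% higher and 4.82% lower over all tested genes. The 5 glutathione peroxidases, which reduce peroxides with thiols, had 0 higher and 0 lower genes and a median log2 ratio of -0.08. Of 5 peroxiredoxins, 1 was higher, a Peroxiredoxin-5 gene (GRMZM2G145449) at 35.5 FPKM against 121 RPKM with a log2 ratio of 1.32. Among 17 peroxisome genes 0 were past 2-fold in either direction (median 0.09). The list of ascorbate synthesis held 2 genes, GRMZM2G138907 at 0.49 and GRMZM2G074850 at 0.99, and 1 of them, a GDP-mannose dehydratase, serves fucose rather than ascorbate synthesis. Among 9 enzymes of the phenylpropanoid pathway, which supplies substrates of wall peroxidases, 2 were higher and 0 lower (median 0.45). They were a phenylalanine ammonia-lyase (GRMZM2G074604, 1.16) and a gene described as mannitol or cinnamyl alcohol dehydrogenase (GRMZM2G090980, 1.10). Of 3 germin-like genes, GRMZM2G103512 was higher at 1.88, and the 1 ferritin gene (GRMZM2G325575) had a ratio of -0.11.

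Metallothioneins, small metal-binding proteins, were lower in 4 of 6 cases (4.82% of all tested genes) and higher in 0 (6.12%), with a median log2 ratio of -1.43, against -1.01 as deposited. GRMZM2G052869 was at 1874 FPKM (wild type) against 897 RPKM (dek40), giving a log2 ratio of -1.48. GRMZM2G161154 and GRMZM2G099340 had ratios of -1.42 and -1.44. GRMZM2G130173, at a low level, had one of -1.62, from at least 11 (wild type) and 1 (dek40) reads. Its interval of -9.17 to -0.96 reaches inside 2-fold. Within 2-fold were GRMZM2G430807 at -0.74 and, in the other direction, GRMZM2G036629 at 0.60. The value of GRMZM2G430807 rests on at least 4 (wild type) and 1 (dek40) reads. Its interval of -7.90 to 1.06 reaches past 2-fold on both sides. The type 2 genes share a description and may share reads, so their values are not independent.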

How the data were processed

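The submitters' processing notes name Bowtie2 2.1.0 and B73 RefGen_v3; counting and annotation are not stated there. Values were deposited once per gene, headed FPKM for the wild type and RPKM for dek40, per the file headers.

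Ratios of the values of all 41406 genes were fractions of whole numbers times 1.102 (relative tolerance 1e-12), which gave the library totals, up to a common factor. Whether they count reads or pairs, called reads throughout, was not determined. The smallest whole reads that also give a whole gene length are lower bounds, so intervals are at least as wide as true reads would give. They were a median of 171 (wild type) and 222 (dek40) per member. This step was tested on simulated data.

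The dek40 values were scaled so that the median of 25115 genes at 1 or more in both libraries had a ratio of 1. A pseudocount of 1, a minimum of 1 and a 2-fold limit were used, with Python 3.11.15, pandas 2.3.3 and SciPy 1.17.1. The files do not pair identifiers with symbols, which came from a RefSeq gene table of Zm-B73-REFERENCE-NAM-5.0 for 38 of 39 members; its build differs, so coordinates are not given. No sequences were used here. Members and lists were chosen with earlier results of these data known. Named genes were those past 2-fold, the 5 most abundant, all catalases, superoxide dismutases, ascorbate peroxidases and NADPH oxidases, the extremes of the other families, and genes next to the minimum; further members were named after their values were seen. Of all genes, 20161 had no description and a further 12567 were described only as uncharacterized, so the families need not be complete. The list for glutathione reductase took 0 genes. Green-tissue markers (20 genes) summed to 42.3 FPKM and 29.7 RPKM. Alternatives changed the scaling, pseudocount, minimum and fold.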

Additional observations from a re-analysis of the deposited data

How the results depend on the processing

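No paired analysis was possible because each genotype has 1 library, and for the same reason no library could be left out. The main values were 5 members higher, 2 lower and a median of 0.06. Scaling by a trimmed mean of log ratios gave 5 and 2 as well (all genes: 1773 and 1410). Dropping the minimum cannot add calls with a pseudocount of 1, and leaving zeins out of the median left the scaling factor the same to 3 digits, so neither bears on stability. As deposited, 10 were higher, 1 was lower and the median was 0.45, while 4282 of all genes were higher and 771 lower, against 1784 and 1406. With equal totals outside the zeins, an alternative chosen after seeing the data, 8 were higher and 1 lower (all genes: 3051 and 955). A pseudocount of 5 left 1 higher and 0 lower (all genes: 514 and 558), and one of 0.1 gave 6 and 3 (all genes: 3466 and 2370). A minimum of 5 gave 4 higher and 1 lower of 29 (all genes: 1305 and 980 of 18695, or 6.98% and 5.24%). At 1.5-fold 10 were higher and 3 lower (all genes: 5032 and 3818). At 4-fold 0 members were higher and 0 lower, against 177 and 223 of all genes. Without the haloperoxidase-related genes and the copper chaperone, also chosen after seeing the data, 4 were higher and 1 lower of 33. These were 12.1% and 3.03%, beside 6.12% and 4.82% of all tested genes. The called gene GRMZM2G102238 was within 2-fold at -0.80 as deposited, -0.95 with equal totals outside the zeins and -0.95 with a pseudocount of 5. The family medians of other peroxidases and haloperoxidase-related genes changed sign as deposited and with equal totals outside the zeins. Causes of these shifts were not tested. Depth limits the genes on few reads, such as GRMZM2G702229 with at least 2 wild-type reads.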

Other observations

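A few genes carry a symbol of these families in the gene table but only an uninformative description, or one the rule leaves out, so they are not among the 39. The apx2 gene (GRMZM2G140667), an ascorbate peroxidase by its symbol, was at 181 FPKM (wild type) against 167 RPKM (dek40). Its log2 ratio was -0.54 (interval -0.66 to -0.42), and -0.12 as deposited. Its description gives no compartment. The rbohB gene (GRMZM2G138152), an NADPH oxidase by its symbol, was at 3.45 FPKM against 7.98 RPKM, giving a log2 ratio of 0.65 (interval 0.29 to 1.30), and 1.01 as deposited. With it, 3 of 4 NADPH oxidase genes had ratios above 0 after scaling, beside 15462 of all 29142 tested genes. As deposited rbohC was above 0 too, at 0.13, where the median of all tested genes was 0.39. Of these, rbohD met the minimum only through dek40. Among the ascorbate peroxidases, apx2 and GRMZM2G460406 had ratios below 0 after scaling and both cytosolic genes had ratios above 0. A 1-Cys peroxiredoxin with the symbol PER1 (GRMZM2G129761), which the rule's words do not take, had a log2 ratio of -0.33, and 0.08 as deposited.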
